A study of Mus musculus with 6 samples.

Results

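The VEGF ligands and the receptors through which blood and lymphatic vessels read them were examined in mouse thyroid tumor cells of 2 genotypes, sorted for the fluorescent protein Kate. Genes were chosen by symbol alone and all 10 were found among the 35027 genes of the deposited table, 4 ligands (Vegfa, Vegfb, Vegfc and Pgf) and 6 receptors or coreceptors (Kdr, Flt1, Flt4, Tek, Nrp1 and Nrp2). YAP mice carried a Cre transgene that acts in thyroid follicular cells, the RIK allele that couples a reverse tetracycline transactivator to Kate, and a tetO transgene for YAPS127A, a constitutively nuclear form of the Hippo pathway coactivator. BrafYAP mice carried the same alleles together with LSL-Braf, so that BrafV600E was expressed from the endogenous gene. All mice received doxycycline (dox) chow from 4 weeks of age by GEO's labels and the study's methods, whereas its results text gives 3 months. The age of the mice at collection is not given in the sources used here. Each genotype had 3 libraries of about 20000 sorted cells, numbered 1, 2 and 3 for YAP and 1, 2 and 6 for BrafYAP. For YAP, 3 tumors were pooled in every library, whereas a BrafYAP library held 1, so pooling and genotype cannot be told apart. Both groups express mutant YAP, so the comparison is of mutant Braf on that background, without a normal thyroid group.

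VEGF-A is the central growth factor of blood vessel formation and acts mainly through the receptor tyrosine kinase encoded by Kdr (VEGFR2), while Flt1 (VEGFR1) binds VEGF-A, VEGF-B and placental growth factor (PlGF, encoded by Pgf) and can act as a decoy. VEGF-C signals through Flt4 (VEGFR3), best known for lymphatic vessels, and Tek (TIE2) is the endothelial receptor of the angiopoietins. Neuropilins 1 and 2 are coreceptors for VEGFs and for class 3 semaphorins, and unlike the receptor kinases they are found on many cell types, epithelial cells included. The thyroid is richly vascularized and its follicular cells are a known source of VEGF-A.

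Values are given as scaled reads, the deposited TPM (transcript abundance per length) with the authors' division by gene length undone. From the deposited values, that length was inferred to be the genomic span with introns, a division that leaves genes with long introns near 0. The span was 3.23 (Vegfb) to 44.7 (Vegfc) times the exonic length among the 10 genes. Estimated reads behind the table ranged from 26.2 to 36.9 M per library, and the lowest count among the 10 genes was 13 reads, of Tek in BrafYAP replicate 1. BrafYAP replicate 6 stood apart, being at least 2-fold above every other library for 7.83% of the 16804 genes tested against 0.22 to 1.04% for each other library. Results that rest on it are given with and without it. The study's methods describe each biological replicate as a single tumor from its own mouse, which differs from the pooling that the labels give for YAP, and the labels were followed.

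The promoter windows of Vegfa and Kdr, the ligand and the receptor that carry most VEGF signaling, are shown so that motifs near their start sites can be read. RefSeq (GRCm38.p6) places these starts 8 and 3 bases from those in GENCODE. Each is the 250 bases before the start, 5′ to 3′ on the gene's strand, chr17:46032378-46032627 (minus strand) and chr5:75978456-75978705 (minus strand), with GC boxes (GGGCGG) and the ETS core (CCGGAA), on either strand, in capitals.
Vegfa: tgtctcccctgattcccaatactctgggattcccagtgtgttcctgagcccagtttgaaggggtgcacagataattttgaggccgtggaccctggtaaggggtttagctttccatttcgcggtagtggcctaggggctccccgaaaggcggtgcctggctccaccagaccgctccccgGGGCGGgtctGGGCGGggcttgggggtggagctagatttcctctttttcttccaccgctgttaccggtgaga
Kdr: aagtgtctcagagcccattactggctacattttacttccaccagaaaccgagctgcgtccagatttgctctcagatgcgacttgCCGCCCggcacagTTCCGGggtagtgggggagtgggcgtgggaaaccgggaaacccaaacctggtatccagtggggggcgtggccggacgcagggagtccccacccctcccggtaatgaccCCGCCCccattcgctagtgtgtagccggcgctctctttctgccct
Of 12 windows of the 10 genes, 10 held a GC box, against 32.7% of 32851 promoters of the same length, and Tek had none. The hypoxia response core ACGTG was in 1 window, the downstream start of Vegfa (16.6% of all promoters), and the ETS core in 1, that of Kdr (12.0%). The TEAD core GGAATG and the AP-1 site TGANTCA were in 0 of the 12 windows (12.6% and 6.75% of all promoters). These are matches of letters within 250 bases and show no binding.

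Levels can be set beside each other between genes only per length, and for this TPM were recomputed with the exonic length. Pgf was the most abundant of the 10, at 106.8 ± 43.7 TPM (SD over 6 libraries), and was above the second, Nrp1, in 6 of 6 libraries. Nrp1 averaged 29.3 ± 33.3, Vegfa 16.6 ± 7.58 and Nrp2 14.2 ± 7.97 TPM, 3 neighbors whose ranges overlapped. Without BrafYAP replicate 6 the mean of Nrp1 was 15.9 ± 7.25, below that of Nrp2 at 16.5 ± 6.47 TPM (SD, n = 5). Vegfa was above Nrp2 in 2 of 6 libraries and these were YAP replicate 1 and BrafYAP replicate 6. Flt4 followed at 7.82 ± 4.88 TPM, below Nrp2 in every library, and Kdr at 6.74 ± 11.0 TPM, a mean that rested on 1 library since its median was 2.40. Vegfb (3.96 ± 1.61), Vegfc (2.28 ± 1.47), Flt1 (1.70 ± 1.74) and Tek (1.00 ± 1.25 TPM) were the lowest, and Flt1 was above Tek in 6 of 6 libraries. Without BrafYAP replicate 6 Flt1 averaged 1.001 ± 0.415 and Tek 0.498 ± 0.157 TPM. By its mean, Pgf stood above 90.6% of the genes tested, Vegfa above 63.8% and Tek above 13.7%.

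**Figure D1:**
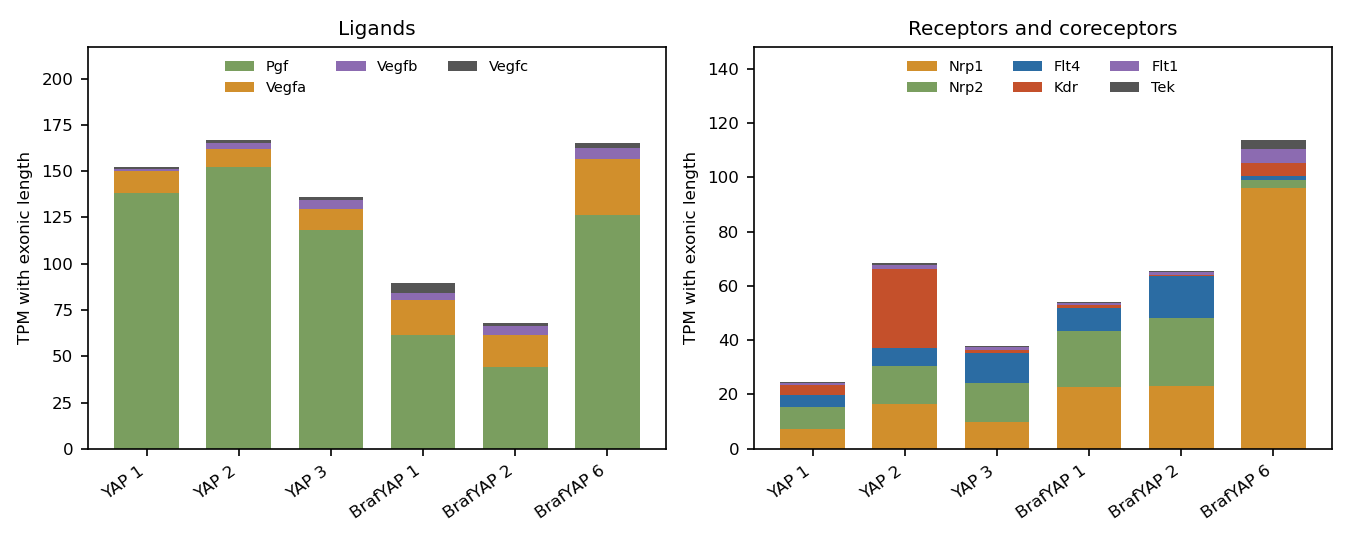
Stacked bars of TPM recomputed with the exonic length in each of the 6 libraries, ligands on the left and receptors and coreceptors on the right. Pgf makes up 86.8 to 91.1% of the ligand sum in YAP and 65.2 to 76.5% in BrafYAP libraries, and the receptor bars are led by Kdr in YAP replicate 2 and by Nrp1 in BrafYAP replicate 6.

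BrafYAP and YAP cells were then compared with limma on log2(scaled reads + 1) over all 16804 genes with a mean of at least 10 scaled reads. None of the 10 genes passed a limma adjusted p-value of 0.05, and neither did any other gene (0% of those tested). Without adjustment 3 of the 10 had a p-value under 0.05, as did 20.3% of all genes tested. These were Vegfa and Nrp1 with higher values in BrafYAP (9.70% of all genes) and Pgf with lower values (10.6%). The count depended on single libraries, being 4 when BrafYAP replicate 6 was left out, 1 when YAP replicate 1 or 2 was, and 0 when YAP replicate 3 was. The groups did not overlap for 2 of the 10, Vegfa and Nrp1, both with BrafYAP above YAP. That was so for 11.7% of all genes, 17.1% lay below without overlap, and 28.8% did not overlap in either direction. With voom on the estimated reads, 0 of the 10 and 0 of all genes passed, and the same number of the 10, 3, had an unadjusted p-value under 0.05. The median log2 fold change of the 10 was 0.37, beside -0.12 for all genes, whose median moved to 0.01 with median-ratio rescaling.

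**Figure D2:**
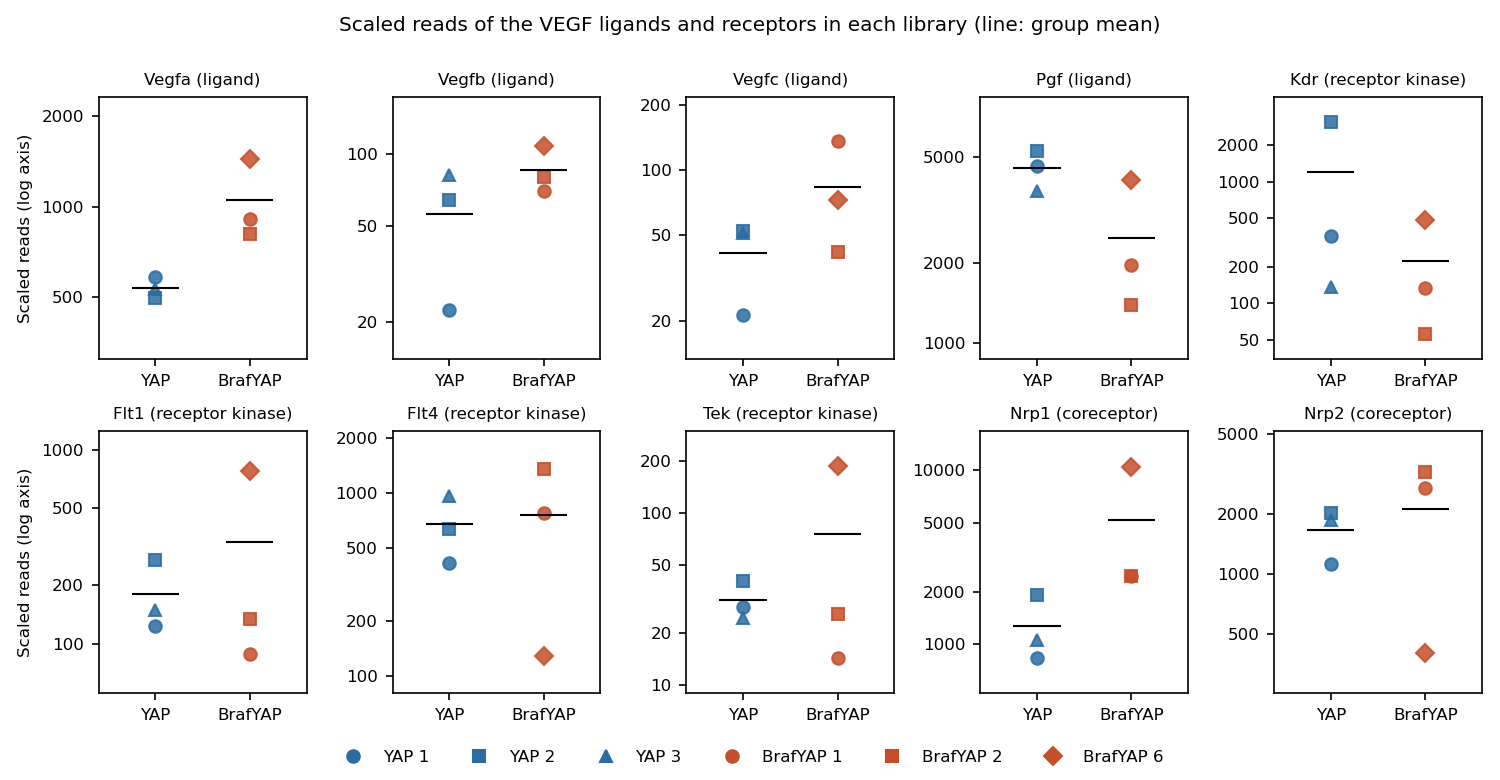
Scaled reads of each gene by library on a log axis, with the arithmetic mean of each group as a line and a marker shape for each replicate number. The 3 BrafYAP libraries lie above the 3 YAP libraries for Vegfa and Nrp1, and BrafYAP replicate 6 (diamond) is the highest for Flt1 and Tek and the lowest for Flt4 and Nrp2.

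Among ligands, Vegfa was higher in BrafYAP cells. It had 584, 499 and 533 scaled reads in YAP replicates 1, 2 and 3, and 908, 810.3 and 1444 in BrafYAP replicates 1, 2 and 6. The YAP libraries lay close together, and each BrafYAP library was above all of them. The log2 fold change was 0.92 (SE 0.32, 95% interval 0.18 to 1.67, limma adjusted p = 0.175), or 0.67 (SE 0.28) without BrafYAP replicate 6, the highest library. Vegfa (chromosome 17, 46016993 to 46032369, mm10, minus strand) overlaps no other annotated gene. Genes of the dissociation response, which tissue digestion can induce, had higher values in the same libraries, with 11 of 12 higher in BrafYAP, 7 of them without overlap between the groups (11.7% of all genes lay above without overlap), and a summed level of 17413 to 23773 TPM in BrafYAP against 6053 to 11246 TPM in YAP libraries. The list held Fos, Fosb, Jun, Junb, Egr1, Atf3, Ier2, Ier3, Dusp1 and the heat-shock genes Hspa1a, Hspa1b and Dnajb1. Digestion and mutant Braf cannot be told apart as sources of their higher values. The part of these genes in the difference of Vegfa was not tested.

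Pgf, which encodes a ligand of VEGFR1 but not of VEGFR2, was lower in 2 of the 3 BrafYAP tumors than in any YAP library. YAP replicates 1, 2 and 3 had 4625, 5251 and 3742 scaled reads, and BrafYAP replicates 1, 2 and 6 had 1976, 1395 and 4103. BrafYAP replicates 1 and 2 were below every YAP library, whereas replicate 6 lay among them. The log2 fold change was -1.0 (SE 0.43, 95% interval -2.00 to -0.00, limma adjusted p = 0.246), and it was -1.44 (SE 0.31, limma adjusted p = 0.0829) without BrafYAP replicate 6. Immune markers tended the same way, although none passed the adjusted threshold. The macrophage receptor gene Csf1r had 11404 to 44244 scaled reads in YAP and 2738 to 10041 in BrafYAP libraries, and 6 of 7 immune markers tested were lower, as were 55.6% of all genes, with a median log2 fold change of -1.85. Of the 7, 4 had an unadjusted p-value under 0.05 (20.3% of all genes), and S100a8 was higher. In BrafYAP replicate 6 Csf1r was at its lowest, as were 31% of all genes tested, and Pgf was at 4103 scaled reads. The part of immune cells in the level of Pgf was not tested. In such bulk samples fewer cells of a type and less RNA per cell cannot be told apart.

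The ratio of these ligands is a quantity within a library that the scaling between libraries cannot move. Per exonic length, Pgf was 11.7, 15.5 and 10.4 times Vegfa in YAP replicates 1, 2 and 3. It was 3.21, 2.54 and 4.19 times Vegfa in BrafYAP replicates 1, 2 and 6, so that the groups did not overlap, BrafYAP replicate 6 included. Vegfa made up 5.86 to 8.38% of the summed level of the 4 ligands in YAP and 18.3 to 25.7% in BrafYAP libraries. Vegfa alone also separated the groups, as did 28.8% of all genes tested, and the share of gene pairs whose ratio does so was not computed. The ratio was looked at after the values were seen, and it is given without a test.

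Vegfb and Vegfc were low in all libraries. Vegfb, whose product binds VEGFR1 and is linked to lipid uptake more than to vessel growth, had 22.4, 64.2 and 81.5 scaled reads in YAP replicates 1, 2 and 3, and 70.2, 80.0 and 107.2 in BrafYAP replicates 1, 2 and 6. The groups overlapped, and most of the difference (log2 fold change 0.77, SE 0.57, limma adjusted p = 0.470) came with the low value of YAP replicate 1, since it was 0.22 without that library. Vegfc, the lymphatic ligand, had 21.4, 52.0 and 51.0 scaled reads in YAP and 136.0, 42.0 and 72.9 in BrafYAP libraries in the same order. BrafYAP replicate 1 was the highest and BrafYAP replicate 2 lay among the YAP libraries (log2 fold change 0.94, SE 0.61, limma adjusted p = 0.414). Vegfd, the other lymphatic ligand, had at most 38.1 scaled reads.

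**Figure D3:**
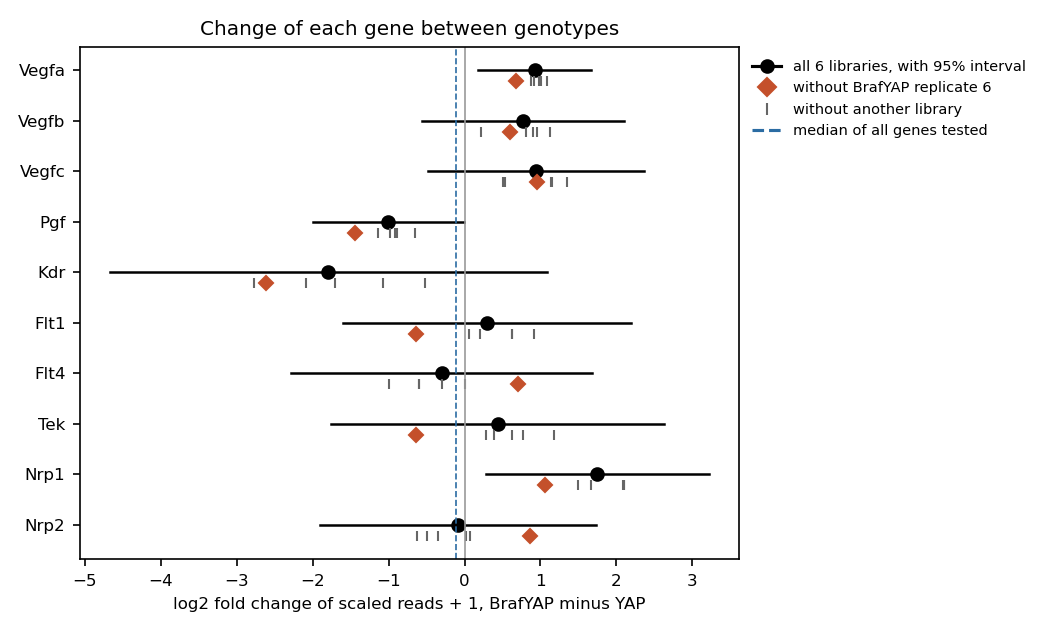
Log2 fold change of each gene, BrafYAP minus YAP, on log2(scaled reads + 1), with its 95% interval from limma (black) and the value with 1 library left out (below each). Vegfa (0.92), Nrp1 (1.75) and Pgf (-1.0) are the 3 whose interval does not reach 0, and without BrafYAP replicate 6 (diamonds) the values of Flt1, Flt4, Tek and Nrp2 take the opposite sign.

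The receptors that mark endothelial cells differed in which library held their highest level. Kdr, the main VEGF-A receptor, had 354, 3116 and 137 scaled reads in YAP replicates 1, 2 and 3, and 134, 55.2 and 479.9 in BrafYAP replicates 1, 2 and 6. YAP replicate 2 was 6.49 times the next library, BrafYAP replicate 6, and the other values of the groups overlapped. The log2 fold change was -1.80 (SE 1.23, 95% interval -4.67 to 1.08, limma adjusted p = 0.436) and -0.52 without YAP replicate 2. Flt1 had 123, 271 and 149.8 scaled reads in YAP libraries and 88.8, 134 and 779.6 in BrafYAP replicates 1, 2 and 6. It was high in BrafYAP replicate 6 alone, at 2.88 times the next library, and BrafYAP replicates 1 and 2 lay within or below the YAP range. The log2 fold change of Flt1 was 0.30 (SE 0.81, limma adjusted p = 0.857), and it was -0.64 (SE 0.46) without BrafYAP replicate 6.

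Tek showed the same library order at the top as Flt1. It had 28.5, 39.9 and 24.5 scaled reads in YAP replicates 1, 2 and 3, 14.3 and 25.6 in BrafYAP replicates 1 and 2, and 186 in BrafYAP replicate 6. Replicate 6 was 4.66 times the next library, and the genotype difference on the log2 scale, 0.44 with all libraries (SE 0.93, limma adjusted p = 0.813), became -0.64 (SE 0.54) without it. Flt4 differed from the other receptor kinases. It had 417, 635 and 969 scaled reads in YAP replicates 1, 2 and 3, 783 and 1361 in BrafYAP replicates 1 and 2, and 128 in BrafYAP replicate 6, where it was lowest. The groups overlapped (log2 fold change -0.30, SE 0.84, limma adjusted p = 0.863), and without BrafYAP replicate 6 the difference was 0.70 (SE 0.45, limma adjusted p = 0.410). The mix of receptor transcripts therefore varied by library. Per exonic length Flt4 was 0.224 times Kdr in YAP replicate 2 and 0.293 times in BrafYAP replicate 6, 1.29 times in YAP replicate 1, and 6.42 to 27.1 times in the other 3 libraries.

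Neuropilin 1 was higher in BrafYAP cells. Nrp1 had 829, 1906 and 1058 scaled reads in YAP replicates 1, 2 and 3, and 2473, 2468 and 10484 in BrafYAP replicates 1, 2 and 6. Every BrafYAP library was above every YAP library, and BrafYAP replicate 6 was 4.24 times the next. The log2 fold change was 1.75 (SE 0.63, 95% interval 0.28 to 3.22, limma adjusted p = 0.188), and 1.06 (SE 0.40, limma adjusted p = 0.209) without BrafYAP replicate 6. Nrp1 lies on chromosome 8 (128358604 to 128503363, mm10, plus strand) and its span holds the microRNA gene Mir1903. Nrp2 had 1116, 2007 and 1866 scaled reads in YAP and 2695, 3215 and 405 in BrafYAP replicates 1, 2 and 6. BrafYAP replicates 1 and 2 were above, and replicate 6 below, all YAP libraries (log2 fold change -0.08, SE 0.77, limma adjusted p = 0.962), a sign that turned to 0.04 with median-ratio rescaling and to 0.87 (SE 0.35, limma adjusted p = 0.225) without BrafYAP replicate 6. The neuropilins were at similar levels per length in 5 libraries, with Nrp1 0.686 to 1.15 times Nrp2, whereas in BrafYAP replicate 6 Nrp1 was 31.3 times Nrp2. Nrp2 overlaps an antisense gene, Gm29083, and Gm37121, which averaged 2.81 and 7.44 scaled reads.

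To see whether these receptors followed endothelial cells, they were set beside 16 other endothelial markers. The sort was for Kate, so cells without Cre recombination should have been left out. The summed level of the 16 markers was 13.6 to 27 TPM in 5 libraries and 198.3 TPM in BrafYAP replicate 6. All 16 were highest in BrafYAP replicate 6, as were 23.8% of all genes tested. Of the 12 that reached a mean of 10 scaled reads without that library, 9 were at least 2-fold above the next library in it, beside 6.08% of 16559 genes chosen in that way. The endothelial adhesion gene Pecam1 had 17.9 to 130.2 scaled reads in the other libraries and 612 in BrafYAP replicate 6, and the marker of fenestrated vessels Plvap had 6.10 to 71.3 and 817. The apelin receptor gene Aplnr had 8.77 to 108.9 and 932 scaled reads, and Egfl7 43.5 to 113.8 and 1072. The contrast was smaller for Esam, with 127.1 to 457 and 834 scaled reads, and for the endoglin gene Eng, with 66.8 to 332 and 359. The cadherin gene Cdh5 was low throughout, at 4.07 to 20.4 and 98.4 scaled reads, and the claudin gene Cldn5 was at 0 in YAP replicate 1 and BrafYAP replicate 1 and at 196 in BrafYAP replicate 6.

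**Figure D4:**
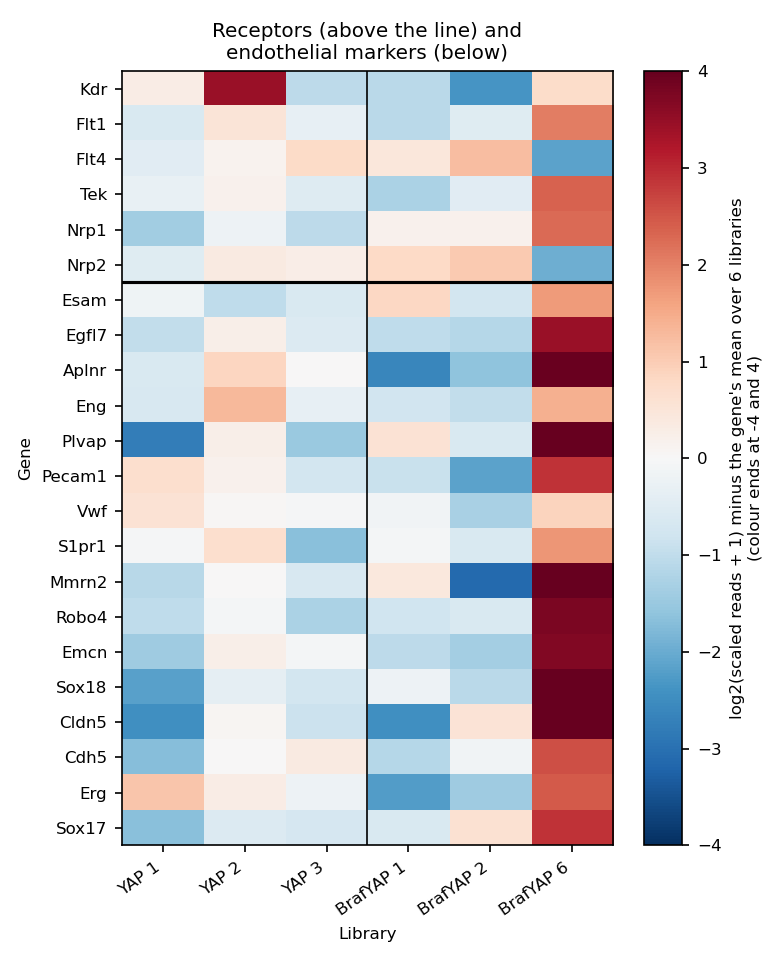
Heat map of log2(scaled reads + 1) minus each gene's mean over the 6 libraries, for the 6 receptors and coreceptors (above the line) and 16 endothelial markers (below it). Flt1, Tek and Nrp1 are highest in the same column as all 16 markers, BrafYAP replicate 6, whereas Flt4 and Nrp2 are lowest there and Kdr is highest in YAP replicate 2.

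Flt1, Tek and Nrp1 thus had their highest values in the library with the highest endothelial markers, and Vegfa and Vegfb did too. In that library 23.8% of all genes tested were at their highest. Kdr was highest in YAP replicate 2, where the summed endothelial markers were 27 TPM. Among the 5 libraries other than BrafYAP replicate 6, YAP replicate 2 was also the highest for 6 of those 12 markers (17.2% of all genes), Aplnr and Egfl7 among them, and for Flt1 and Tek. The rest of the 12 were highest elsewhere, Pecam1 in YAP replicate 1, Cdh5 in YAP replicate 3, and Esam and Plvap in BrafYAP replicate 1. Flt4 and Nrp2 were lowest where endothelial markers were highest, as were 31% of all genes tested. Neither Flt4 nor Nrp2 followed the blood endothelial markers there. Of the lymphatic markers, Prox1 had 0 to 16.9 scaled reads, Lyve1 0 to 39.6 and Reln 0 to 6.05, and Flt4 was at 128 to 1361 in the same libraries. Pdpn, which other cell types also express, had 2468 to 5560 scaled reads in YAP libraries, 1124 and 1151 in BrafYAP replicates 1 and 2, and 93.2 in BrafYAP replicate 6 (log2 fold change -2.89, SE 0.96, limma adjusted p = 0.166). Like Flt4 it was lowest in BrafYAP replicate 6, as were 31% of all genes tested. Lyve1 was instead at its highest there, and Prox1 and Reln were neither highest nor lowest there. Across the 14 markers tested the median log2 fold change was 0.87, beside -0.12 for all genes, and it was -0.71 over 12 tested without BrafYAP replicate 6. None had an unadjusted p-value under 0.05 with all libraries (limma adjusted p 0.291 to 0.978), beside 20.3% of all genes. Without BrafYAP replicate 6 there were 2 of 12, both lower in BrafYAP (16.7%, beside 21% of all genes). BrafYAP replicate 6 also had the highest level of 7 of 8 thyroid follicular markers (23.8% of all genes tested), among them the iodide transporter gene Slc5a5 (562 against at most 18.2 scaled reads). It had the lowest level of the other, Pax8 (5135 against at least 7151), and epithelial markers summed to 6936 to 20838 TPM over the 6 libraries. The part of endothelial cells in the values of that library was not tested.

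Among the partners of the neuropilins, the class 3 semaphorins and the plexins, 11 of 13 genes were tested. BrafYAP values were higher for 6 and lower for 5. None passed the adjusted threshold, and 2 had an unadjusted p-value under 0.05 (18.2%, beside 20.3% of all genes). Both, Sema3c and Plxnd1, were chosen for naming after their values were seen. Sema3c, a secreted semaphorin that binds both neuropilins, had 181, 202 and 80.5 scaled reads in YAP replicates 1, 2 and 3, and 1366, 1434 and 1518 in BrafYAP replicates 1, 2 and 6. The BrafYAP libraries lay close together and far above the YAP libraries, BrafYAP replicate 6 included. The log2 fold change was 3.32 (SE 0.40, limma adjusted p = 0.0543). It passed the threshold in 6 of 18 alternative fits, among them the one without BrafYAP replicate 6 (3.28, limma adjusted p = 0.0429). Plxnd1, a plexin of endothelial and other cells, had 392 to 526 scaled reads in YAP and 133 to 255 in BrafYAP libraries (log2 fold change -1.35, SE 0.35, limma adjusted p = 0.116). The neuropilin adaptor gene Gipc1 had 1314 to 5699.9 scaled reads in YAP and 5976 to 6622 in BrafYAP libraries, and Sema3f 352 to 887 and 1014 to 1555. Sema3b, by contrast, had 622 to 3964 scaled reads in YAP libraries and 1910.1, 1796 and 73.8 in BrafYAP replicates 1, 2 and 6.

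The angiopoietin and TIE genes were led by Angpt4, with 256 to 768 scaled reads in 5 libraries and 0 in BrafYAP replicate 6, where a count of 0 allows up to 3 reads. Tie1, the partner of Tek, had 3.11 to 64.2 scaled reads in 5 libraries and 784 in BrafYAP replicate 6, and Angpt1, the activating ligand of Tek, 1.019 to 19.4 and 224. Angpt2 had 8.15 to 64.1 scaled reads. Of the 5 genes of the list 0 had an unadjusted p-value under 0.05 (20.3% of all genes). Of 9 genes that act below VEGF receptors or respond to them, 6 were higher and 3 lower, and 1 had an unadjusted p-value under 0.05, the T-cell adaptor gene Sh2d2a (lower), again beside 20.3% of all genes. Without BrafYAP replicate 6, 8 genes of that list were tested, with Vegfd and without Dll4 and Esm1, and 6 were higher and 2 lower. The tip-cell gene Dll4 had 1.017 to 16.3 scaled reads in 5 libraries and 325 in BrafYAP replicate 6, and Esm1 0 to 15.4 and 202. Both are known to be induced by VEGF-A in endothelial cells, and both were named after their values were seen. All 16 endothelial markers were also highest in BrafYAP replicate 6, where 7.83% of all genes tested were at least 2-fold above every other library. A response of Dll4 and Esm1 to VEGF-A was not tested. The VEGF receptor effector gene Plcg1 had 481 to 803 scaled reads, and Rcan1, which is expressed in many cell types, had 2152 to 6289, both with overlapping groups.

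Genes whose pattern over the 6 libraries was most like that of Vegfa, by Pearson's r of log2(scaled reads + 1) among 11125 named genes with a mean of at least 100 scaled reads, were Sftpd (0.994), Etv1 (0.994), Fem1a (0.991), Sftpb (0.988) and Bmp3 (0.987). For Flt4, the receptor kinase with the largest mean, they included Hspg2 (0.993), Tbc1d10b (0.993), Tead2 (0.988) and Ddah2 (0.987). These coefficients rest on 6 libraries that share their scaling and are descriptions without a test.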

How the data were processed

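For RNA-seq, cDNA from about 20000 Kate-positive cells per library was amplified with 12 cycles, made into libraries with 8 further PCR cycles and sequenced as 50-nt paired reads. Alignment by the authors used STAR 2.6.1d and mm10. Quantification used Partek's E/M method with the annotation of Ensembl release 95, and the authors deposited TPM with 0.0001 added. Titles in GEO gave each sample's group.

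The deposited value minus 0.0001 was multiplied by each gene's span in GENCODE M21 and divided by the product that 1 read gives in that library. Of products under 200 reads, 71.7 to 76.0% lay within 0.05 of a whole number when the span was used. With exonic lengths 9.81 to 24.2% did, so the authors' length was taken to be the span. This gives estimated reads for 34640 genes, whose symbols lie at 1 locus. Scaled reads use the mean product over libraries (33.5) instead, which keeps the authors' scaling. Reads carry no molecular identifier and the E/M model can divide them between genes, so read numbers cover counting error only. No strand was stated for the counting.

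Scaled reads were compared by limma 3.58.1 in R 4.3.3 (eBayes with a trend), two-sided, with no covariate, Benjamini-Hochberg adjustment over all 16804 genes and a threshold of 0.05. The script was tested on simulated data. The genes, lists, tests and rule for named genes were chosen with earlier results of these data known. The rule named all 10 genes, up to 4 of the most abundant genes of each list, and the genes most like Vegfa and the leading receptor kinase. Pecam1, Plvap, Cdh5, Cldn5, Slc5a5, Vegfd, Dll4, Esm1, Sh2d2a, Angpt2, Sema3c, Plxnd1, S100a8 and Arnt lie outside it and were chosen after their values were seen. Epithelial, thyroid, immune and fibroblast lists described the sorted cells. Alternatives were another pseudocount, filter, scaling, variance model or length, a replicate block and each library left out. Scaling to equal totals of estimated reads was added after seeing the data. Some items that the rule or the lists hold are not reported here. Promoter windows are RefSeq's on GRCm38.p6.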

Additional observations from a re-analysis of the deposited data

How the results depend on the processing

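Of the 10 genes, the fit with a minimum mean of 100 tested 7, and that on the deposited values tested 2, Vegfa and Pgf. None of the 10 genes passed the threshold in any fit but the one with array weights, where 3 did, Vegfa (0.74, limma adjusted p = 0.0221), Pgf (-1.12, 0.0132) and Nrp1 (1.27, 0.0169). The number of all genes past it was 0 with all settings as described, 51 with a pseudocount of 10, 62 with quantile normalization, 20 without a trend in eBayes, 4664 with array weights, 18 with the deposited values, 63 with the exonic length and 55 with equal totals of estimated reads. Over the fits that each left out 1 library it ranged from 0 to 190, the latter without BrafYAP replicate 6, and over the 10 genes it was 0 to 0. Why these counts moved was not tested.

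Vegfa, Vegfb, Vegfc, Pgf, Kdr and Nrp1 kept their direction in all 17 to 19 alternative fits that gave a value. With 1 library left out Vegfa ranged from 0.67 to 1.09 (limma adjusted p 0.227 to 0.382), Nrp1 from 1.06 to 2.10, Pgf from -1.44 to -0.66 and Kdr from -2.77 to -0.52. Flt1 ranged from -0.64 to 0.92, Tek from -0.64 to 1.17, Flt4 from -1.0 to 0.70 and Nrp2 from -0.62 to 0.87, each taking the opposite sign without BrafYAP replicate 6. Flt4 (0.00) and Nrp2 (0.02) also did so without YAP replicate 3, and Nrp2 (0.07) without YAP replicate 2. With array weights Flt1 was -0.44, Tek -0.35 and Nrp2 0.53. With median-ratio rescaling Nrp2 was 0.042, and with the exonic length it was 0.024. Sema3c ranged from 2.78 to 3.90 and Plxnd1 from -1.59 to -1.0 over all fits.

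Replicate numbers 1 and 2 occur in both groups, but the deviations of same-numbered libraries correlated at -0.03 and 0.05, so the numbers do not pair the samples. With the replicate number as a block, 0 genes and 0 of the 10 passed, Kdr was -3.60, Pgf -1.57, Nrp1 0.97, Flt1 -0.74, Flt4 1.00, Tek -0.79 and Nrp2 0.98, values that use replicates 1 and 2 alone. Vegfb, Vegfc and Tek had the fewest reads of the 10. The SE of the log2 fold change was largest for Kdr (1.23), then Tek (0.93), and was 0.57 for Vegfb and 0.61 for Vegfc.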

Other observations

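Of 8 other secreted regulators of angiogenesis, 4 were higher and 4 lower in BrafYAP, and 1 (12.5%, beside 20.3% of all genes) had an unadjusted p-value under 0.05, the growth factor gene Fgf1 (1221 to 2071 scaled reads in YAP and 546 to 1179 in BrafYAP libraries). Thbs1, which encodes the vessel growth inhibitor thrombospondin 1, was the most abundant, at 98004 to 169735 scaled reads in YAP, 88877 and 117161 in BrafYAP replicates 1 and 2, and 7759 in BrafYAP replicate 6. Angptl4 had 1306 to 9197 scaled reads in YAP and 6128 to 14138 in BrafYAP libraries. The vasoactive peptide gene Adm had 1016 to 2195 scaled reads in YAP, 1159 and 1364 in BrafYAP replicates 1 and 2, and 177 in BrafYAP replicate 6.

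Among 11 regulators and targets of the hypoxia response, a main inducer of Vegfa, 5 were higher and 6 lower in BrafYAP, with a median log2 fold change of -0.00. Without BrafYAP replicate 6, 7 were higher and 4 lower, with a median of 0.30. With all libraries 1 (9.09%, beside 20.3% of all genes) had an unadjusted p-value under 0.05, and none without that library. This was Arnt, which encodes the partner of the hypoxia-inducible factors (1321 to 1666 scaled reads in YAP and 620.5 to 982 in BrafYAP libraries). Hif1a had 1263 to 2863 scaled reads in YAP and 1919.6 to 3592 in BrafYAP libraries. In BrafYAP replicate 6, the library with the most Vegfa, 4 of the 11 were highest, the target Ndrg1 among them (12850 against 6019.6 to 12114 scaled reads), and 6 were lowest, the target Bnip3 among them (1021 against 3281 to 5231). Of all genes tested, 23.8% were highest and 31% lowest in that library.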
